A study of Mus musculus with 6 samples.

Results

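The IL-2 receptor and its STAT5 pathway were followed through 10 genes in sorted splenic regulatory T cells (Treg) of mice. These were the receptor chains Il2ra, Il2rb and Il2rg, the kinases Jak1 and Jak3, the transcription factors Stat5a and Stat5b, and the feedback inhibitors Socs1, Socs2 and Cish. They were taken by symbol through their Ensembl identifiers, and each of the 10 matched 1 of the 36811 rows in the deposited table of FPKM. FPKM is a fragment number divided by transcript length and by a scale for the library. The series compared 3 libraries labelled cKO with 3 labelled WT, all from Foxp3-GFP+ cells. The cKO mice were Bach2fl/fl Foxp3EGFP-Cre-ERT2 and the WT mice Bach2+/+ Foxp3EGFP-Cre-ERT2, all C57BL/6 and 18 to 21 weeks old. Cells of both groups therefore carried EGFP and a Cre-ERT2 recombinase driven by the Foxp3 gene. Cre-ERT2 acts after tamoxifen, whose dose and timing no source used here gives. The comparison addresses what removal of the transcriptional repressor Bach2 in Treg does to gene expression. Values below are listed in the order of replicates 1, 2 and 3.

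Treg depend on interleukin-2 made largely by other T cells. The cytokine is captured by the alpha chain (Il2ra, CD25), and the signal passes through the beta chain (Il2rb, CD122) and the common gamma chain (Il2rg, CD132), which carry the kinases Jak1 and Jak3. The kinases phosphorylate Stat5a and Stat5b, which enter the nucleus, promote transcription of Foxp3 and Il2ra and switch on inhibitors of the same pathway, among them Cish, Socs1 and Socs2. Phosphorylation is not seen in RNA levels.

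Cish is a classic STAT5 target, and its start site is printed because Cish was the only one of the 10 genes whose groups did not overlap. RefSeq promoter windows on GRCm38.p6 (250 bases before to 50 after the start) were found for 8 of the 10 genes, in 10 windows, and not for Il2rb and Socs2. The STAT motif TTCNNNGAA, whose pattern is the same on both strands, was searched in each window. It matched in 1 of the 10, that of Cish, at 2 positions. Both lay in the 50 bases from the start on. The 250 bases before the start, to which the planned search was limited, held no match in any of the 10 windows. Of all 32851 windows in the table, 8.30% held a match and 0.457% held 2 or more, so 1 window of 10 with a match was near the background. The first line gives 30 bases at chr9:107296655-107296684, plus strand, with the matches in capitals, and the second the 250 bases before the start, chr9:107296409-107296658.
Cish start: agttTTCCTGGAAagTTCTTGGAAatctgt
Cish upstream: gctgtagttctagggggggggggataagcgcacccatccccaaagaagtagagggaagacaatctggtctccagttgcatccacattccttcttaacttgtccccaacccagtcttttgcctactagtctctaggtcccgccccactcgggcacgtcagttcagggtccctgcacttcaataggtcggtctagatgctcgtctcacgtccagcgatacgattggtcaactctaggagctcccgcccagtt
Counting the RefSeq start as base 1, the matches begin at bases 1 and 12, with 2 bases between them. GENCODE also holds a Cish transcript that starts farther upstream. A match is a run of letters, and binding was not measured.

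Low FPKM values move in steps, which put the scale from fragments to FPKM at about 3050000 to 4990000 fragments a library, with WT 2 lowest and cKO 2 highest. On that scale no value of the 10 genes rests on fewer than about 38.4 fragments, the lowest being one of Socs2, if each is taken at the gene's shortest coding transcript. Bach2 itself did not run lower in the cKO libraries, at 7.84 ± 1.38 against 5.45 ± 2.54 FPKM (SD, n = 3 each), so every direction rests on the labels alone. The values are for whole genes, so a loss of single Bach2 exons could not be checked. None of the 8 markers of CD4 T cells and Treg was at 0 in any library. Cd4 lay between 318 and 474 FPKM, Foxp3 between 5.16 and 9.44 FPKM and Cd8a between 0 and 0.531 FPKM. Another CD8 marker, Cd8b1, lay between 18.8 and 22.4 FPKM, above Foxp3 in every library. In bulk RNA, fewer cells of a type and less RNA per cell cannot be told apart. Whether each library came from its own mouse is not labelled, so p-values measure only the spread among libraries, which may be technical.

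No gene of the pathway passed the test between the groups, and Cish had the largest log2 difference of the 10. Of the 10 genes, 0 passed an adjusted p of 0.05 in either direction (limma on log2(FPKM + 1), Benjamini-Hochberg over 11979 genes), against 0.0250% of all genes tested (0.00835% higher, 0.0167% lower). At an unadjusted p under 0.05 in limma, 1 was higher in the libraries labelled cKO (Cish) and 0 were lower, against 5.37% of all genes (3.59% higher, 1.78% lower). The groups did not overlap in 1 of the 10, again Cish, against 10.7% of all genes (6.96% higher, 3.75% lower), so the share among the 10 was near the background. The log2 difference was above 0 in 6 of the 10 and below 0 in 4, where all genes divided into 55.0% and 45.0%. The median over the 10 was 0.085 and over all genes 0.033. That of the 10 turned to -0.0078 when cKO replicate 1 was left out and to -0.0021 when WT replicate 3 was. When libraries were scaled to equal sums the median of all genes moved to 0.17 and that of the 10 to 0.24.

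**Figure D1:**
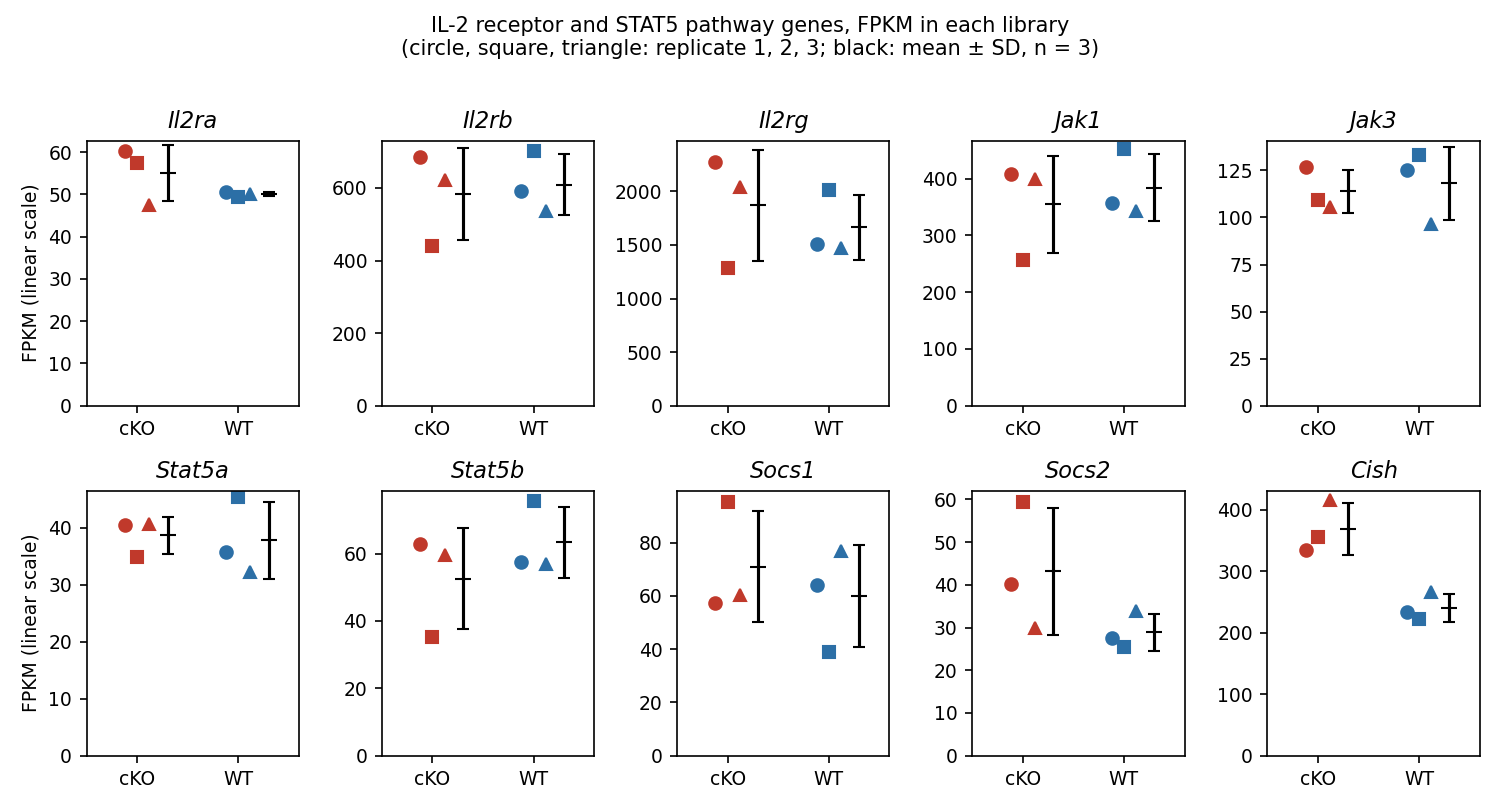
FPKM (linear axis from 0) of the 10 pathway genes in each library, with the 3 libraries labelled cKO and the 3 labelled WT side by side and black bars for the mean ± SD. Only for Cish do all cKO points (335 to 416 FPKM) lie above all WT points (222 to 266 FPKM).

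The receptor chains did not separate the groups. Il2rg, the chain shared with the receptors for IL-4, IL-7, IL-9, IL-15 and IL-21, had the highest FPKM of the pathway. It measured 2278, 1288 and 2042 FPKM in the cKO libraries and 1509, 2017 and 1475 FPKM in the WT libraries. All WT values lay inside the range of the cKO libraries, between cKO 2 and cKO 1. Its log2 difference was 0.14 (95% interval -0.47 to 0.75, limma adjusted p = 0.973). In the annotation 728 of the 2387 exon bases of Il2rg also belong to Gm20489, a protein-coding gene on the same strand with no row in the table. Il2rb, the signalling chain shared with the IL-15 receptor, measured 684, 441 and 622 FPKM in the cKO libraries and 592, 701 and 535 FPKM in the WT libraries. The lowest value was again in cKO 2, and the highest was in WT 2. Il2rb differed by -0.080 (95% interval -0.57 to 0.41, limma adjusted p = 0.978), or 0.077 with equal sums, the scaling that raised the median of all genes.

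Il2ra, the chain that gives the receptor its high affinity and a surface marker by which Treg are known, varied least of the 10. It measured 60.2, 57.3 and 47.6 FPKM in the cKO libraries and 50.6, 49.5 and 50.2 FPKM in the WT libraries. The WT libraries spanned a narrow band that lay inside the cKO range. Its log2 difference was 0.13 (SE 0.135, 95% interval -0.20 to 0.45, limma adjusted p = 0.935), and 0.011 with library weights. The highest Il2ra value was 1.26 times the lowest, while that ratio reached 2.43 for Socs1.

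The kinases did not separate the groups either. Jak1, which binds the beta chain, measured 407, 256 and 399.5 FPKM in the cKO libraries and 357, 451 and 344 FPKM in the WT libraries. The value in cKO 2 lay below the other five. Jak1 differed by -0.14 (95% interval -0.66 to 0.39, limma adjusted p = 0.964), or 0.020 with equal sums. Jak3, which binds the common gamma chain, measured 127, 109 and 106 FPKM in the cKO libraries and 125, 133 and 96.4 FPKM in the WT libraries. All cKO values lay inside the WT range. Jak3 differed by -0.043 (95% interval -0.44 to 0.35, limma adjusted p = 0.989), or 0.11 with equal sums. In the annotation 404 exon bases of Jak3 also belong to Insl3 on the same strand, which stood at no more than 8.32 FPKM in any library.

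Stat5b and Stat5a carry the signal to the nucleus. Stat5b measured 63.0, 35.3 and 59.5 FPKM in the cKO libraries and 57.5, 75.5 and 57.01 FPKM in the WT libraries. Apart from cKO 2 at the low end and WT 2 at the high end, the values lay between 57.01 and 63.0 FPKM. Its log2 difference was -0.30 (95% interval -0.90 to 0.31, limma adjusted p = 0.925), and -0.036 without cKO replicate 2. Stat5a measured 40.4, 34.9 and 40.6 FPKM in the cKO libraries and 35.8, 45.4 and 32.2 FPKM in the WT libraries. All cKO values lay inside the WT range. Stat5a differed by 0.043 (95% interval -0.36 to 0.44, limma adjusted p = 0.990), and by just under 0 after quantile normalization and with trimmed-mean scaling. The pair are close paralogs, and 15.8% of the 50-base words in the longest coding Stat5a transcript also occur in Stat5b, so the authors' counting could have divided fragments between them. Another 72 exon bases of Stat5a overlap Stat3 on the opposite strand.

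The log2 differences of the 3 feedback inhibitors were above 0. Cish, an SH2-domain protein that dampens cytokine and T cell receptor signalling, measured 335, 355 and 416 FPKM in the cKO libraries and 234, 222 and 266 FPKM in the WT libraries. Every library labelled cKO was above every one labelled WT. The means were 369 ± 42.1 and 240.4 ± 22.7 FPKM (SD, n = 3 each), 1.53-fold apart. On the log2 scale Cish differed by 0.61 (SE 0.141, 95% interval 0.28 to 0.95), at an unadjusted p of 0.00377 and an adjusted p of 0.846 in limma. By p it was number 52 of the 11979 genes tested, and it did not pass.

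An annotated antisense gene, Gm17041 (ENSMUSG00000090570), lies within the Cish exons, and all 479 of its exon bases are shared with Cish. SmartSeq2 libraries do not mark strand, so reads of the overlap cannot be told apart. Gm17041 measured 281, 253 and 256 FPKM in the cKO libraries and 157, 162 and 169 FPKM in the WT libraries. The groups did not overlap here either. On the log2 scale it differed by 0.69 (SE 0.113, limma unadjusted p = 5.90e-04, adjusted p = 0.589). A pseudogene, Gm17040, shares another 261 exon bases with Cish on the opposite strand and differed by 0.41 (limma adjusted p = 0.925). What the shared bases add to the Cish value was not tested, and both genes were chosen after their values were seen.

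**Figure D2:**
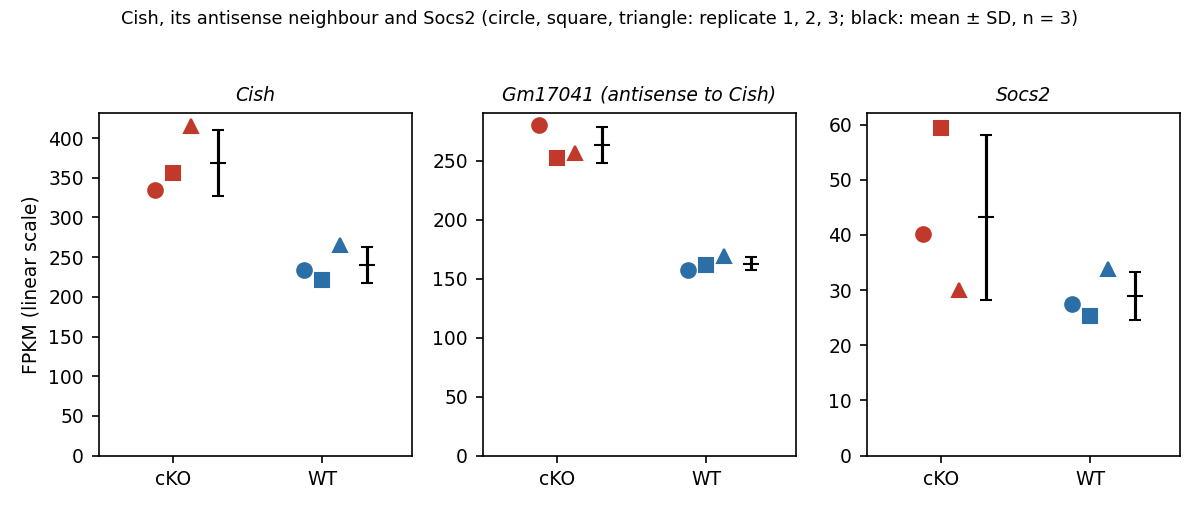
FPKM (linear axes from 0) of Cish, of Gm17041 on its opposite strand and of Socs2 in each library, with black bars for the mean ± SD. Cish and Gm17041 separate the groups (253 to 281 against 157 to 169 FPKM for Gm17041), while cKO 3 of Socs2, at 29.998 FPKM, lies below WT 3 at 33.8 FPKM.

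Socs2, which limits growth hormone and cytokine signalling, measured 40.2, 59.3 and 29.998 FPKM in the cKO libraries and 27.6, 25.3 and 33.8 FPKM in the WT libraries. The groups overlapped through cKO 3 and WT 3, and cKO 2 was highest. Its log2 difference was 0.52 (SE 0.261, 95% interval -0.11 to 1.14, limma adjusted p = 0.925), and 0.27 without cKO replicate 2. Socs1, a strong inhibitor of JAK kinases that restrains gamma-chain and interferon signalling, measured 57.4, 95.1 and 60.5 FPKM in the cKO libraries and 64.0, 39.1 and 76.8 FPKM in the WT libraries. The highest value was in cKO 2 and the lowest in WT 2. Socs1 differed by 0.26 (95% interval -0.47 to 0.98, limma adjusted p = 0.946), by 0.029 without cKO replicate 2 and by -0.019 without WT replicate 2.

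**Figure D3:**
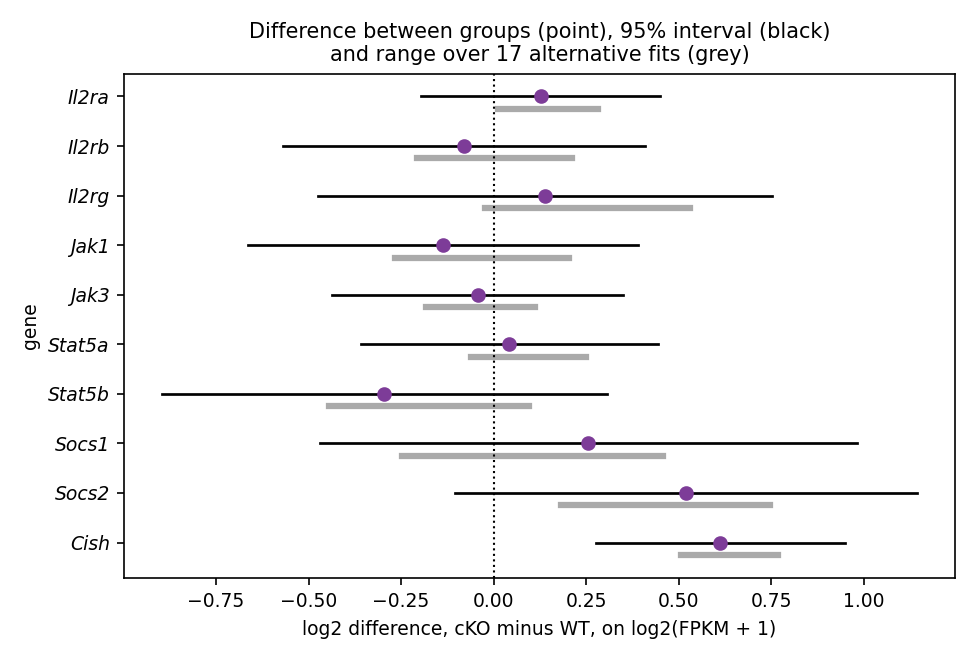
Log2 difference of each pathway gene, cKO minus WT on log2(FPKM + 1), with its 95% limma interval and the range over 17 alternative fits. The interval excludes 0 for Cish alone (0.28 to 0.95), before adjustment over all genes, and the range of Cish over the alternatives runs from 0.51 to 0.77.

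Some markers of other cells moved with the groups, and their part in the Cish difference was not tested. The 4 erythroid markers summed to 129 to 277 FPKM in the cKO libraries and 33.0 to 112 FPKM in the WT libraries, with 3 of 3 tested above 0 on the log2 scale. The 6 myeloid markers summed to 75.6 to 94.5 against 41.6 to 81.8 FPKM, with 4 of 4 tested above 0 and Ly6g and Cd14 at 0 in some library. The B cell list, with 4 of 4 above 0, summed to 112 to 152 against 102 to 144 FPKM and had no marker at 0. For the 5 CD8 and NK markers the sums were 21.2 to 23.6 against 23.3 to 24.4 FPKM, with 1 of 2 tested above 0 and Cd8a, Ncr1 and Klrd1 at 0 in some library. Most of each sum was Cd8b1. Klrd1 measured 0, 0.546 and 0.336 FPKM in the cKO libraries and 3.46, 1.81 and 1.35 FPKM in the WT libraries (limma adjusted p = 0.874). Klrb1c, which was not tested, was also lower in each cKO library, while Cd8a, Cd8b1 and Ncr1 overlapped. Of all genes tested, 3.75% were lower without overlap. The 8 Treg and CD4 T cell markers summed to 9042 to 12072 against 8259 to 9936 FPKM, with 8 of 8 above 0.

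Levels in FPKM, which are per length, can be set in order across the 6 libraries. The order depends on the transcript lengths behind the values, which no source used here gives. Coding transcripts run from 421 to 4906 bases for Jak1 and from 411 to 2850 bases for Cish, so it may not be that of transcript numbers. Il2rg came first at 1768 ± 395 FPKM (SD, n = 6), followed by Il2rb at 596 ± 97.1, Jak1 at 369 ± 67.3, Cish at 304 ± 76.5 and Jak3 at 116 ± 14.4 FPKM. Socs1 at 65.5 ± 18.9, Stat5b at 58.0 ± 13.1, Il2ra at 52.6 ± 4.99, Stat5a at 38.2 ± 4.79 and Socs2 at 36.0 ± 12.5 FPKM came next. In FPKM the alpha chain was thus far below the beta and gamma chains. Neighbours in the order whose ranges did not overlap were Il2rg over Il2rb, Cish over Jak3, Jak3 over Socs1 and Il2ra over Stat5a. Il2rb was above Jak1 in 6 of 6 libraries although their ranges overlapped. Jak1 was above Cish in 3 of 3 WT libraries, with means of 384 and 240.4 FPKM and no overlap, but in 1 of 3 cKO libraries, with means of 354 and 369 FPKM. Neighbours that did not differ beyond their spread over the 6 libraries were Socs1 and Stat5b (Socs1 higher in 4 of 6), Stat5b and Il2ra (5 of 6) and Stat5a and Socs2 (4 of 6). By group means the order of these pairs also differed between the groups, since Il2ra was above Stat5b and Socs2 above Stat5a in the cKO group, and Stat5b above Socs1 in the WT group.

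Ratios between pathway genes within a library do not depend on how libraries are scaled, and 4 were compared. The ratio of Stat5b to Stat5a was 1.56, 1.01 and 1.47 in the cKO libraries and 1.61, 1.67 and 1.77 in the WT libraries. Each cKO library was below each WT library, though cKO 1 was close to WT 1. On the log2 scale this ratio differed by -0.35, with an exact two-sided permutation p of 0.1, the smallest that 3 against 3 libraries allow, and 0.4 adjusted over the 4 ratios. Without cKO replicate 2 the difference was -0.15.

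The other three ratios overlapped between the groups. Il2rb to Il2ra was 11.4, 7.70 and 13.1 in the cKO libraries and 11.7, 14.2 and 10.7 in the WT libraries (exact two-sided permutation p = 0.5, adjusted 0.667). Jak3 to Jak1 was 0.312, 0.426 and 0.265 in the cKO libraries and 0.350, 0.295 and 0.280 in the WT libraries (exact two-sided permutation p = 0.8, adjusted 0.8). In the first cKO 2 was the lowest library of all, and in the second the highest. Cish to Socs1 was 5.83, 3.74 and 6.87 in the cKO libraries and 3.65, 5.67 and 3.46 in the WT libraries (exact two-sided permutation p = 0.2, adjusted 0.4). Here cKO 2 had the lowest ratio of its group and WT 2 the highest of its own. The log2 difference of Cish to Socs1 was 0.35, and it was 0.61 without cKO replicate 2 and 0.17 without cKO replicate 3.

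Libraries cKO 2 and WT 2 were often the extreme libraries among the pathway genes, in opposite ways. Of the 10 genes, cKO 2 was the lowest library for 4 (Il2rb, Il2rg, Jak1 and Stat5b) and the highest for 2 (Socs1 and Socs2). WT 2 was the highest for 5 (Il2rb, Jak1, Jak3, Stat5a and Stat5b) and the lowest for 3 (Socs1, Socs2 and Cish). Over all genes tested, cKO 2 was lowest in 23.4% and highest in 25.4%, and WT 2 was highest in 19.9% and lowest in 17.5%. The same libraries lay at the ends of the depth scale, and the part of depth in this pattern was not tested.

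**Figure D4:**
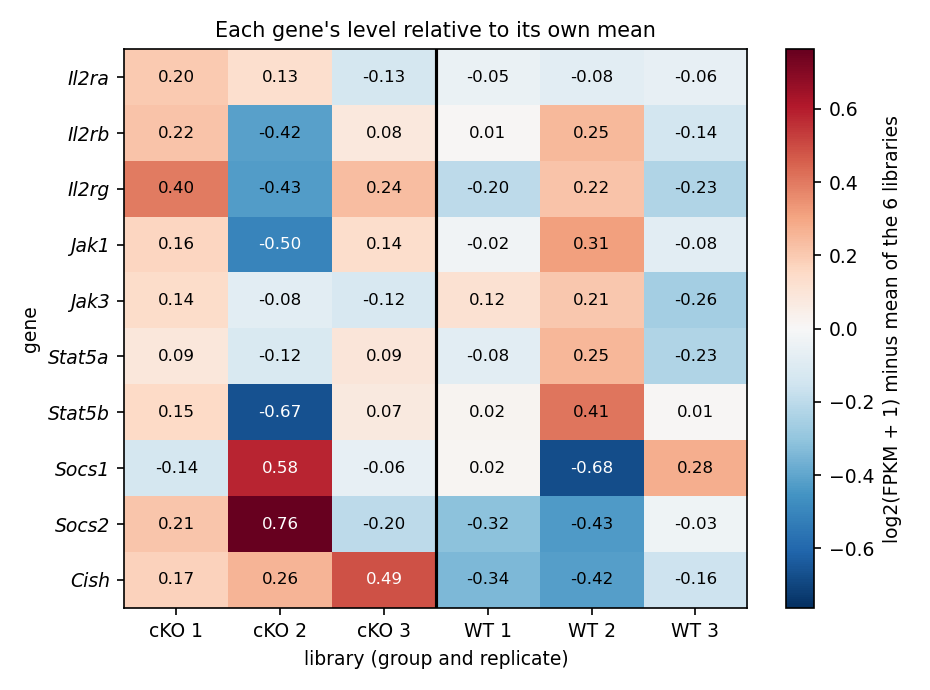
Log2(FPKM + 1) of each pathway gene minus its own mean over the 6 libraries, by library. In cKO 2 Stat5b stands at -0.67 and Socs2 at 0.76, in WT 2 Stat5b stands at 0.41 and Socs1 at -0.68, and Cish is above its mean in each cKO library and below it in each WT library.

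With both of these libraries left out, a choice made after seeing the data, the groups did not overlap in 6 of the 10 genes upward and 1 downward, against 23.1% and 13.8% of all genes. The 6 were Il2rb, Il2rg, Jak1, Stat5a, Stat5b and Cish, and the 1 was Socs1. For Il2rb, Jak1 and Stat5b, cKO 2 was the lowest library and WT 2 the highest, and for Socs1 the reverse. Leaving both out removes these extremes, so the counts follow in part from the choice of libraries. None of the 10 passed, and Il2rg and Cish had the lowest adjusted p (limma, 0.751 for both). Il2rg then differed by 0.53 and Cish by 0.58 on the log2 scale. With a single library left out, the upward count was 2 of 10 without cKO replicate 2 (Il2rg and Cish), against 12.3% of all genes. It was 2 without WT replicate 3 (Socs2 and Cish), against 12.2%, and 3 without cKO replicate 3 (Il2ra, Socs2 and Cish), against 11.1%.

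The wider pathway was read from lists of related genes, and none of their genes passed in either direction. Among 6 cytokines of the gamma-chain family 2 were tested, Il2 and Il4, while Il7, Il9, Il15 and Il21 fell under the filter. Il2 itself measured 2.49, 0.977 and 0.743 FPKM in the cKO libraries, 0.867 and 0.991 FPKM in WT 1 and 3, and was listed at 0 in WT 2. Its groups overlapped. Il4, a cytokine of type 2 helper cells, measured 6.23, 3.65 and 5.78 FPKM in the cKO libraries and 0.601, 2.26 and 2.95 FPKM in the WT libraries. The groups of Il4, a gene chosen after its values were seen, did not overlap, and it differed by 1.16 (SE 0.399, limma adjusted p = 0.915).

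Of the 6 other receptor chains of the family, 3 lay above 0 and 3 below, with a median log2 difference of 0.046 that was -0.041 after quantile normalization. Il15ra, the high-affinity chain for IL-15, was the 1 of the 6 whose groups did not overlap, against 10.7% of all genes (6.96% higher, 3.75% lower). It measured 23.5, 31.4 and 27.8 FPKM in the cKO libraries and 22.6, 16.4 and 16.2 FPKM in the WT libraries, with cKO 1 close to WT 1. Il15ra differed by 0.56 (SE 0.191, limma adjusted p = 0.915). Il7r, the IL-7 receptor chain, stood at 69.2 ± 3.67 against 64.1 ± 7.73 FPKM, and Il4ra, the IL-4 receptor chain, at 130.2 ± 5.63 against 136 ± 11.0 FPKM (SD, n = 3 each).

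Of 7 other JAK and STAT genes, 3 lay above 0 and 4 below. The groups overlapped in each, while they did not in 10.7% of all genes. The median of the 7 was -0.045 and turned to 0.11 with equal sums. Stat3, which serves IL-6 and IL-10, stood at 251 ± 113 against 276 ± 55.9 FPKM and Stat6, which serves IL-4, at 111 ± 34.1 against 127 ± 30.8 FPKM (SD, n = 3 each). Both had wide spreads and their lowest value in cKO 2. Of 14 other inhibitors and phosphatases, 5 lay above 0 and 9 below, at a median of -0.041 that was 0.099 with equal sums. The groups overlapped in each of the 14 too, against the same 10.7% of all genes without overlap. Socs3, an inhibitor of IL-6 family signalling, stood at 41.6 ± 9.29 against 55.5 ± 14.8 FPKM. It differed by -0.39 on the log2 scale, which is opposite in sign to those of Cish and Socs2. Ptpn2, a phosphatase of JAK and STAT proteins, stood at 53.4 ± 5.97 against 48.3 ± 3.32 FPKM. Of 6 tested genes of the adaptors and the PI3K branch, 4 lay above 0 at a median of 0.029, which was -0.014 after quantile normalization, while Gab2 and Sos1 were not tested.

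Among 21 genes known to be induced by IL-2 and STAT5, 15 lay above 0 and 6 below, against 55.0% and 45.0% of all genes, with a median log2 difference of 0.21. It was 0.11 without cKO replicate 3 and 0.36 with equal sums, and 0 of the genes passed (limma). The list was chosen with earlier results of these data known. Foxp3, Ctla4, Ikzf2 and Tnfrsf18 in it are also among the Treg and CD4 T cell markers, all of which lay above 0. At an unadjusted p under 0.05 in limma, 6 were higher (Icos, Lta, Prdm1, Tnfrsf1b, Gzmb and Pim1) and 0 lower, against 3.59% and 1.78% of all genes. The groups did not overlap in 5 upward (Pim1, Lta, Prdm1, Tnfrsf1b and Icos) and in 3 downward (Bcl2, Myc and Ccnd2), against 6.96% and 3.75%. Icos, a costimulatory receptor, measured 129, 149 and 179.9 FPKM in the cKO libraries and 93.2, 90.7 and 74.4 FPKM in the WT libraries. All cKO values lay well above the WT values, with a difference of 0.81 (SE 0.170, limma adjusted p = 0.748). Lta, the cytokine lymphotoxin alpha, measured 93.6, 88.7 and 95.3 FPKM in the cKO libraries and 60.9, 67.7 and 70.8 FPKM in the WT libraries. These groups were also well apart, with a difference of 0.47 (SE 0.120, limma adjusted p = 0.846).

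The other genes of that list lay on both sides. Prdm1, which encodes the repressor Blimp-1, stood at 9.30 ± 2.34 against 4.89 ± 0.270 FPKM (SD, n = 3 each). Tnfrsf1b, the receptor TNFR2, stood at 259 ± 62.1 against 165 ± 23.3 FPKM. Both of these were higher in each cKO library. The survival factor Bcl2 stood at 21.7 ± 3.56 against 28.7 ± 4.04 FPKM, the growth regulator Myc at 76.3 ± 5.73 against 94.5 ± 7.77 FPKM and the cyclin Ccnd2 at 131 ± 2.48 against 148 ± 7.27 FPKM. These genes were lower in each cKO library.

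Genes known to be repressed by IL-2 and STAT5 lay below 0 in 5 of 6, all but Il7r (0.12), against 45.0% of all genes, with a median log2 difference of -0.21 and 0 past the threshold (limma). At an unadjusted p under 0.05 in limma, 1 was lower (Il6ra), against 1.78% of all genes. The groups did not overlap in 2 (Il6ra and Cxcr5), against 3.75%. The median was -0.086 with equal sums. Tcf7 at -0.053 (SE 0.129) and Bcl6 at -0.12 (SE 0.254) lay within 1 SE of 0. This list too was chosen with earlier results of these data known. Il6ra, the IL-6 receptor, measured 56.6, 43.7 and 54.9 FPKM in the cKO libraries and 72.6, 65.6 and 66.7 FPKM in the WT libraries. Its groups did not overlap, and it differed by -0.40 (SE 0.145, limma adjusted p = 0.915). Cxcr5, the follicular homing receptor, stood at 31.0 ± 2.72 against 38.6 ± 3.19 FPKM, also without overlap. Il6st, the signalling chain of the IL-6 receptor, stood at 23.1 ± 8.94 against 32.3 ± 5.19 FPKM, with its lowest value in cKO 2.

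**Figure D5:**
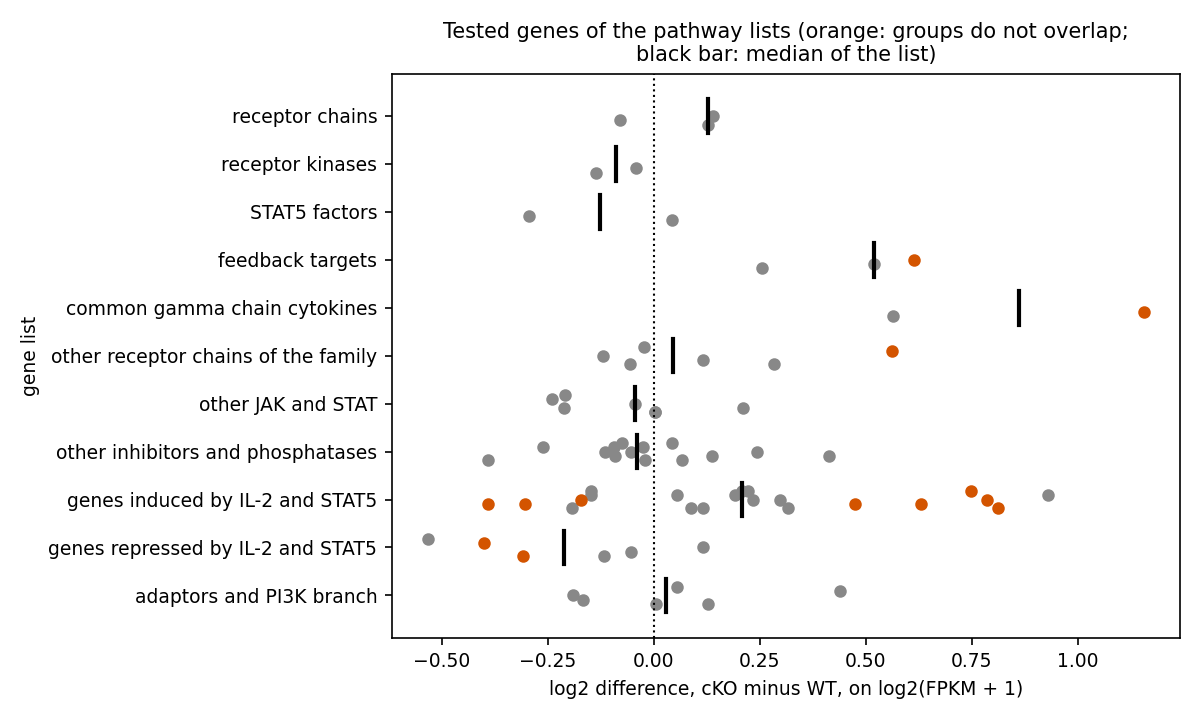
Log2 difference (cKO minus WT on log2(FPKM + 1)) of every tested gene of the pathway lists, 1 point a gene, with a bar at the list's median and a mark on genes whose groups do not overlap. The medians are 0.52 for the 3 feedback inhibitors (the value of Socs2, whose groups overlap), 0.21 for the induced genes and -0.21 for the repressed genes. They are 0.13 for the receptor chains, -0.090 for the receptor kinases, -0.13 for the STAT5 factors and 0.86 for the cytokines. For the other receptor chains the median is 0.046, for the other JAK and STAT genes -0.045 and for the other inhibitors and phosphatases -0.041. The adaptors and PI3K branch stand at 0.029 and all genes tested at 0.033.

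The genes most like Il2ra and Cish across the 6 libraries were found by the root mean square difference of centred log2(FPKM + 1) values among 9985 genes. For Cish these were Abca2 (0.066), a lipid transporter, Otud6b (0.092), a deubiquitinase, and AW112010 (0.097). Abca2 measured 29.4, 29.0 and 35.9 FPKM in the cKO libraries and 21.6, 20.04 and 24.0 FPKM in the WT libraries. A close match to Cish brings with it groups that do not overlap. For Il2ra they were Arid4a (0.044), a chromatin protein, Oxa1l (0.044), a mitochondrial insertase, and Faap24 (0.045), a DNA repair protein. The likeness rests on 6 values that share library and depth.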

How the data were processed

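CD4+ cells of the spleen were enriched, Treg were sorted, and SmartSeq2 libraries were sequenced, per the labels' protocols. The submitters' processing notes name FastQC, cutadapt, HISAT2 and the builds NCBIM37 and mm9. FPKM values of 36811 genes in 6 libraries were deposited by the authors, in a table whose name gives cuffnorm. No source used here gives its annotation, strand setting, filters or batches.

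Identifiers were matched to symbols (31840 of 36811). All genes with a mean FPKM of 1 or more, 11979 including the 10 pathway genes, entered a limma fit (version 3.58.1, R 4.3.3) of log2(FPKM + 1) with a mean-variance trend and without a block, and p-values were adjusted over all of them at 0.05. This scale understates changes of low genes. Ratios were tested by exact permutation (scipy 1.17.1, Python 3.11.15). Depth is the scale at which low values of genes with a single transcript step by whole fragments. It need not equal the number of fragments sequenced. Transcript lengths and exon overlaps come from GENCODE M21, whose build GRCm38 is newer than the authors' own.

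The genes, lists and tests were chosen with earlier results of these data known. Besides the 10 genes, the text names Bach2, fixed examples of each list (not all of them reported here), the 4 induced and the 4 repressed genes with the smallest p, and the 3 genes most like Il2ra and Cish. Genes behind counts of 5 or fewer were named after their values were seen, as were Gzmb, Pim1, Cd8b1, Klrd1 and Klrb1c. Other settings tried were pseudocounts 0.1 and 5, a minimum of 5 FPKM or none, and scaling by quantiles, sums or trimmed means. A fit with no trend, one with library weights, one with a replicate block, and the omission of single libraries were also tried, and 1 FPKM was added in the ratios. Leaving out both libraries numbered 2 was added after seeing the data. The planned comparison of STAT5 proteins was replaced by shared transcript words. The motif search, planned for the 250 bases before the start, was widened to the 50 bases after it.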

Additional observations from a re-analysis of the deposited data

How the results depend on the processing

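Cish kept a log2 difference between 0.51 and 0.77 in the 17 alternatives and passed in none of them (limma, lowest adjusted p = 0.279, with library weights). The block, the filters and the missing trend cannot move a difference, only its p. Il2ra and Socs2 were above 0 in each, but Il2ra was 0.011 with library weights and 0.060 to 0.23 without 1 library. The count of pathway genes past the threshold was 0 in each alternative. Other genes turned direction without passing. Equal sums raised the median of all genes from 0.033 to 0.17, and with it Il2rb came to 0.077, Jak1 to 0.020 and Jak3 to 0.11, where the median of the 10 genes was 0.24. For the rest the cause was not tested. With library weights Il2rb came to 0.025 and Jak1 to 0.040. Stat5a came to -0.0058 after quantile normalization and -6.0e-04 with trimmed-mean scaling. With both libraries numbered 2 left out the values were 0.21 for Il2rb, 0.20 for Jak1, 0.077 for Jak3, 0.096 for Stat5b, -0.25 for Socs1, 0.13 for the ratio of Il2rb to Il2ra and -0.12 for that of Jak3 to Jak1. The genes with no overlap were then 6 of the 10 upward and 1 downward, against 23.1% and 13.8% of all genes. Without 1 library the range was -0.21 to 0.11 for Il2rb, -0.025 to 0.39 for Il2rg, -0.25 to 0.081 for Jak1, -0.18 to 0.049 for Jak3, -0.062 to 0.18 for Stat5a and -0.019 to 0.46 for Socs1. It was -0.37 to 0.012 for the ratio of Il2rb to Il2ra and -0.097 to 0.25 for that of Jak3 to Jak1. The count of pathway genes with no overlap upward was 1 to 3. Where it was 2 or 3, between 11.1% and 12.3% of all genes had no overlap upward.

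Of all genes tested, 1 passed upward and 2 downward. Without 1 library the counts were 2 to 6 and 2 to 13, with both libraries numbered 2 left out 4 and 14, and with library weights 2 passed upward. Downward 1 passed with equal sums and 1 with no variance trend. With the replicate block 1 passed upward and 0 downward, and Cish kept 0.61 at an adjusted p of 1.0. Deviations from the group means correlated at -0.060, -0.18 and -0.017 for libraries of equal number, against up to 0.13 for unequal numbers. Deviations from a mean of 3 libraries offset one another, so these values cannot tell whether equal numbers were paired. A minimum of 5 FPKM left no cytokine of the gamma-chain family to test. The number of libraries limits every interval given.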
